A study of Rattus norvegicus with 12 samples.

Results

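A set of 10 immediate early genes was followed in cultured rat retinal ganglion cells (RGCs), the neurons of the optic nerve, after 24 h with an endothelin. They were the early growth response factors Egr1, Egr2, Egr3 and Egr4, the immediate early response genes Ier2, Ier3 and Ier5, the synaptic gene Arc, the nuclear receptor Nr4a1 and the Krüppel-like factor Klf4. The members were all probe sets of the deposited table whose single annotated symbol was one of these 10 names, which gave 14 of 31042 probe sets and 10 of the 14217 genes so annotated. Egr2 and Egr4 had 2 probe sets each and Ier5 had 3, and the one with the highest mean signal stands for the gene. The comparison asked which of these genes were still raised at 24 h, the single time that was sampled.

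RGCs of Sprague-Dawley rat pups of postnatal days 4 to 6 were panned on an antibody to Thy-1.1 and grown for 7 days in medium that held forskolin and 2 neurotrophic factors, CNTF and BDNF. All cells, the controls included, then spent a night in serum-free medium lacking the neurotrophic factors. The groups were 100 nM ET-1, 100 nM ET-2, 100 nM ET-3 and untreated cells (vehicle-treated in some labels), with 3 Affymetrix Rat Genome 230 2.0 arrays each, numbered 1 to 3 as biological replicates. The labels do not say whether replicates were separate platings or animals, so p-values measure the spread between these 12 arrays.

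Immediate early genes are switched on within minutes of a stimulus, from factors already present in the cell, and most of their transcripts are short-lived. Serum response factor and its ternary complex partners act through the CArG box of the serum response element, and CREB through the cAMP response element. Endothelin receptors couple to Gq and calcium and to the ERK pathway, which feeds both. The Egr proteins are zinc finger factors that in turn switch on slower genes, and NAB corepressors hold them in check.

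The stretches before an annotated start of Egr1, Egr2, Ier2 and Nr4a1 are shown because they hold the letters of these response elements. They were read from RefSeq (GRCr8), in which 7 of the 10 members had a promoter window (Egr1, Egr2, Egr4, Ier2, Ier5, Nr4a1 and Klf4). Each is the 200 bases before the annotated start, 5′ to 3′ on the gene's strand. Capitals mark a CArG box or TGACG, the conserved part of the cAMP response element, which reads CGTCA where it lies on the other strand. The positions are chr18:26736878-26737077, plus strand for Egr1, chr20:21054442-21054641, minus strand for Egr2, chr19:40399173-40399372, plus strand for Ier2 and chr7:134259938-134260137, plus strand for Nr4a1. The listed starts of Egr2 and Nr4a1 lie inside the annotated genes (chr20:21050149-21055201 and chr7:134247153-134268044). So does that of Klf4, which is not shown but is among the 7 counted below (window chr5:75078593-75078792, minus strand, gene chr5:75074107-75079182).
Egr1: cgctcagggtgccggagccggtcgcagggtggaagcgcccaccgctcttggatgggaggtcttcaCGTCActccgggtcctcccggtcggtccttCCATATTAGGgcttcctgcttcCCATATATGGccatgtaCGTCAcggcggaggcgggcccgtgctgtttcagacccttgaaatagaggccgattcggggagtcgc
Egr2: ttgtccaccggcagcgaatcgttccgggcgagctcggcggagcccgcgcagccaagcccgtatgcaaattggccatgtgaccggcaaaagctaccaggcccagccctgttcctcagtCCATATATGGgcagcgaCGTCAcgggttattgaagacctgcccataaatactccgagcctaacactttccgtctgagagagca
Ier2: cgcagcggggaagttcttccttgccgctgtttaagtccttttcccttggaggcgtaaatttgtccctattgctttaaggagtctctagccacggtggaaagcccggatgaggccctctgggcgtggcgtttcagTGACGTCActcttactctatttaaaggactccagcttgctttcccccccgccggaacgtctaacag
Nr4a1: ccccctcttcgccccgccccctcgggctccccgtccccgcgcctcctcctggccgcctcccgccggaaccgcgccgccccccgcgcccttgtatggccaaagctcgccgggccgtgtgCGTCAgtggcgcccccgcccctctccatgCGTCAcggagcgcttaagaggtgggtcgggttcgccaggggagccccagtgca
Within the 250 bases before the start, 2 of the 7 members held a CArG box, against 1.5% of all 33469 windows searched the same way on both strands. These were Egr1, with boxes that begin 105 and 83 bases upstream, and Egr2, with 1 that begins 83 bases upstream. TGACG on either strand was found in 5 of 7 (Egr1, Egr2, Egr4, Ier2 and Nr4a1), against 18.2% of all windows. In Egr1, Egr2 and Ier2 1 such match begins 66 bases upstream. In Ier2 it is part of a palindrome, TGACGTCA, that 1.59% of windows hold and no other member did. A match is a match of letters, with no measurement of binding here.

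Marker signals differed between replicate numbers in all 4 groups. Of 13 RGC markers, 11 were measured and all 11 passed the filter on dim probe sets. Their summed signal was 86220 to 90290 in the endothelin arrays and 84950 in the untreated array of replicate 1. It was 102400 to 108100 in the endothelin arrays and 113400 in the untreated array of replicate 2, and 124500 to 134600 in the endothelin arrays and 121300 in the untreated array of replicate 3. The 9 fibroblast, pericyte and smooth muscle markers, of which 8 passed, summed to 47830 to 51600 in the endothelin arrays and 40650 in the untreated array of replicate 1. In replicates 2 and 3 they summed to 12300 to 16080 in endothelin arrays and to 12280 and 11560 in untreated arrays. Within each group Col1a1, Col1a2, Lum, Dcn, Pdgfra and Pdgfrb were highest in replicate 1, and the contractile Tagln and Acta2 were lowest there. In untreated replicates 1, 2 and 3 Tagln read 2708, 4637 and 5003, and Acta2 543.8, 686.5 and 793.4. With the mean of the endothelins, 3 of these 8 rose (limma with the replicate number as a block, where 3.54% of all probe sets were called higher), the pericyte receptor Pdgfrb (log2 change 1.02, adjusted p = 0.0102) and the contractile genes Tagln (0.72, 0.000931) and Acta2 (0.55, 0.000507), and 0 of the 11 RGC markers passed. The pericyte marker Rgs5 stayed between 19.3 and 56.9 on all arrays. The endothelial list (2 of 7 measured markers passed) summed to at most 1070. Its VEGF receptor Kdr fell, lower on all 9 endothelin arrays than on untreated ones of their number. In limma with the block its log2 change was -0.58 with the mean (adjusted p = 0.0304) and -0.74 with ET-2 (0.0481, with 249 of 15521 probe sets called in either direction). The list did not fall as a whole. The other tested marker, Esam, stood at 0.46 with the mean and did not pass (0.304). Among the dim untested ones Flt1, Cldn5 and Tek stood at 1.18, 1.13 and 0.61, and Pecam1 and Vwf at -0.86 and -0.59. The photoreceptor list (0 of 3) summed to at most 80.1 and the bipolar list (0 of 2) to at most 250.4. Sums over all arrays were 1855 to 2358 for astrocytes and Müller glia (2 of 7 passed), 1594 to 3094 for microglia and macrophages (5 of 8), 1120 to 2232 for amacrine cells (4 of 6) and 275.8 to 809.3 for oligodendrocytes (1 of 3). In such bulk RNA, a change in the number of cells of a type and a change in RNA per cell cannot be told apart.

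**Figure D1:**
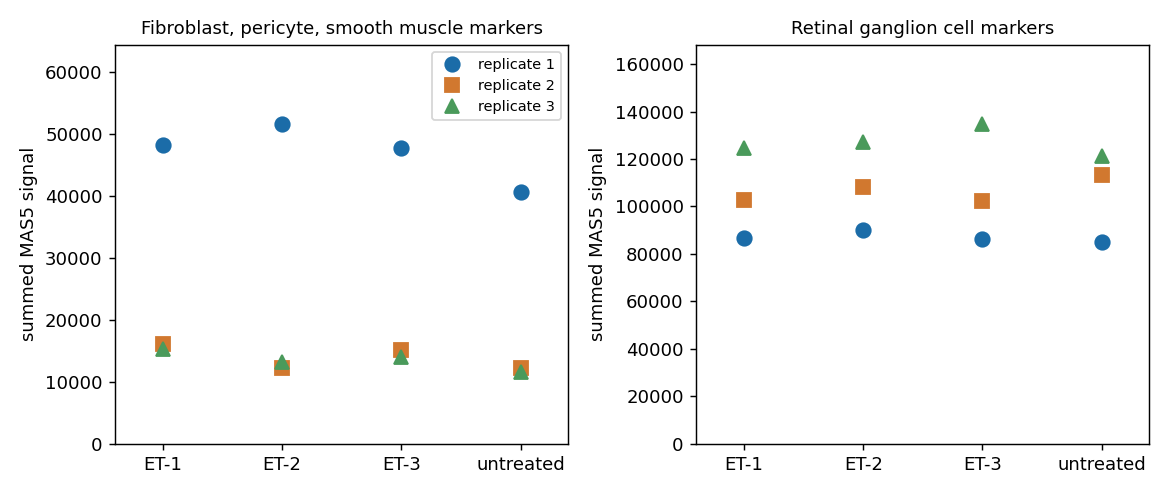
Summed MAS5 signal of the markers of fibroblasts, pericytes and smooth muscle (left) and of RGCs (right) for ET-1, ET-2, ET-3 and untreated arrays, 1 point per array, with the replicate number as colour and shape. The 4 arrays of replicate 1 lie at 40650 to 51600 on the left, where the other 8 lie at 11560 to 16080. Not every marker follows this sum, since Tagln and Acta2 were lowest in replicate 1 within each group.

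Egr1 and Egr2 were higher with every endothelin in replicates 1 and 2 and close to untreated in replicate 3. Egr1 (also zif268 or Krox-24) read 3644, 1912 and 1256 in the ET-1 arrays of replicates 1, 2 and 3, against 1822, 806.9 and 1121 in untreated cells. With ET-2 it read 3425, 1410 and 1362, and with ET-3 3471, 1853 and 1152. Each of the 9 endothelin arrays thus lay above the untreated array of its own number, while the groups overlapped, since untreated replicate 1 exceeded the endothelin arrays of replicate 3. Egr2 (Krox20), known for its part in myelination by Schwann cells, read 318.1, 232.4 and 188.5 with ET-1, 287.8, 190.0 and 215.0 with ET-2 and 284.2, 250.7 and 176.5 with ET-3, against 113.4, 119.5 and 194.7 in untreated cells. Here 7 of the 9 endothelin arrays were above their untreated partner, and the exceptions were ET-1 and ET-3 in replicate 3.

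Of the Ier genes, Ier3 was higher on all 9 endothelin arrays, Ier5 on 6 and Ier2 on 5. Ier3 (IEX-1), a stress-induced gene linked to cell survival, read 2115, 1118 and 1383 with ET-1, 2188, 892.8 and 1149 with ET-2 and 2232, 1151 and 1114 with ET-3, against 866.9, 670.2 and 1001 in untreated cells. Its ET-1 and ET-3 arrays lay above every untreated array, which 2.25% and 2.54% of tested probe sets also showed, and its ET-2 arrays did not (2.13% of probe sets did). Ier2, a nuclear protein, read 787.0, 574.2 and 415.8 with ET-1, 753.5, 450.8 and 462.0 with ET-2 and 835.8, 404.8 and 446.4 with ET-3, against 404.3, 409.8 and 515.8 in untreated cells. Its mean ratio to untreated was 1.96 in replicate 1, and it lay below untreated with each in replicate 3. Ier5, a regulator linked to the heat shock response, moved little, with 745.0 to 998.1 on the endothelin arrays and 686.3 to 832.3 on the untreated arrays. Its ratio to untreated was 1.27 in replicate 1, 1.2 in replicate 2 and 0.945 in replicate 3 (geometric means of 3 endothelin arrays).

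Nr4a1 and Klf4 had their largest ratios to untreated in replicate 1. Nr4a1 (Nur77), an orphan nuclear receptor that acts without a known ligand, read 700.9, 144.1 and 112.1 with ET-1, 693.5, 149.6 and 93.4 with ET-2 and 704.6, 132.8 and 113.3 with ET-3, against 149.8, 66.4 and 83.6 in untreated cells. Within replicate 1 the 3 peptides gave 4.68, 4.63 and 4.7 times the untreated signal, in replicate 2 2.17, 2.25 and 2 times, and in replicate 3 1.34, 1.12 and 1.36 times. All but the endothelin arrays of replicate 1, the ET-2 array of replicate 2 and the untreated array of replicate 1 lay under the signal of 147.5 used as filter. Klf4, a zinc finger factor known in rodent RGCs as a brake on axon growth, read 1146, 397.0 and 342.0 with ET-1, 1037, 261.0 and 246.9 with ET-2 and 1209, 397.0 and 306.1 with ET-3, against 455.7, 238.8 and 260.9 in untreated cells. ET-2 in replicate 3 was the 1 endothelin array of 9 below its untreated partner.

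Arc, Egr3 and Egr4 gave low signals in every group. Arc, which controls the removal of glutamate receptors from synapses, lay between 66.5 and 179.7 on the 9 endothelin arrays and at 85.9, 91.4 and 136.0 on the untreated arrays. Egr3, a factor needed for muscle spindles in mice, lay between 70.4 and 139.0 on endothelin arrays and between 82.4 and 109.8 on untreated ones. Egr4, also known as NGFI-C, lay between 9.05 and 72.5 on endothelin arrays and between 40.1 and 53.2 on untreated ones, and its second probe set did not exceed 16.1. For each of these 3 genes the range of the endothelin arrays enclosed the range of the untreated arrays. Their mean signals lay at the 44.3, 43.8 and 22.9 percentile of all probe sets, under the filter at the 50 percentile, and they were not tested with the filter in place. With no filter and the replicate number as a block, the log2 change with the mean of the endothelins was 0.06 ± 0.18 for Arc (SE of the fit over all 12 arrays, limma adjusted p = 0.926), 0.06 ± 0.20 for Egr3 (adjusted p = 0.929) and -0.75 ± 0.55 for Egr4 (adjusted p = 0.574). The further probe sets of Egr2 (4.91 to 45.9 over all arrays) and Ier5 (at most 111 and 66) were also under the filter, so that 7 probe sets of 7 genes were tested.

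**Figure D2:**
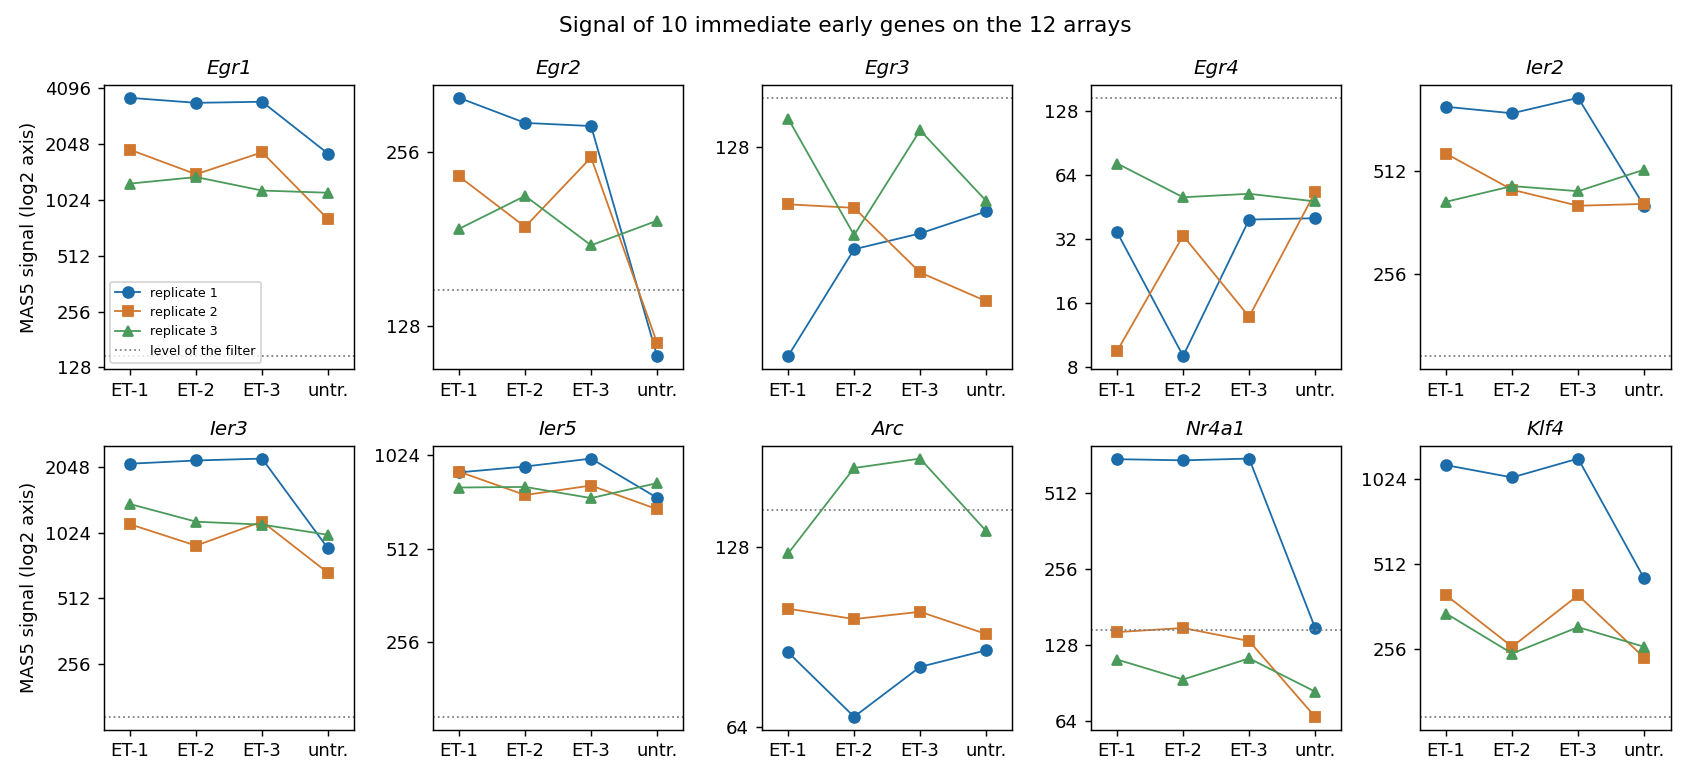
MAS5 signal (log2 axis, scaled per panel) of the probe set that stands for each of the 10 genes, for ET-1, ET-2, ET-3 and untreated arrays, with lines that join arrays of 1 replicate number and a dotted line at the filter signal of 147.5. In replicate 1 the endothelin arrays stand above untreated for Egr1, Egr2, Ier2, Ier3, Ier5, Nr4a1 and Klf4, whereas Arc, Egr3 and Egr4 show no such step.

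Tested over the replicates, Ier3, Egr1, Klf4 and Nr4a1 were higher with the mean of the endothelins when arrays were compared within replicate numbers. Before any test, 3 of the 7 tested genes (Egr1, Ier3 and Nr4a1) lay above untreated on all 9 endothelin arrays, as did 5.59% of tested probe sets, and none had every endothelin array above every untreated array (0.677%). For the mean of the 3 endothelins against untreated, the log2 signal rose by 0.75 ± 0.14 for Ier3 (1.68-fold), 0.73 ± 0.14 for Egr1 (1.66-fold), 0.67 ± 0.16 for Klf4 (1.59-fold) and 1.22 ± 0.25 for Nr4a1 (2.33-fold). The ± values are SEs of the block fit, which counts endothelin arrays that share 1 untreated array as separate. They do not measure how the effect varies between the 3 replicate numbers. Within replicates 1, 2 and 3 it was 1.33, 0.64 and 0.27 for Ier3 and 0.95, 1.08 and 0.16 for Egr1. For Klf4 it was 1.31, 0.53 and 0.18, and for Nr4a1 2.22, 1.10 and 0.34. These 4 of the 7 tested members passed in limma with the replicate number as a block, with an adjusted p of 0.0107, 0.01, 0.0305 and 0.0144. Of all 15521 probe sets tested, 3.54% were called higher there. Nr4a1 and Egr2 passed the filter through their endothelin arrays, since their untreated means (log2 6.56 and 7.11) lie under its level of 7.205. With no filter, where all 10 members were tested, the same 4 passed (limma with the block, adjusted p of 0.0198 to 0.0492; 1.62% of all probe sets were called higher). Egr2, at 0.76 ± 0.20, missed the threshold (adjusted p = 0.0514), as did Ier2 at 0.31 ± 0.17 (0.301) and Ier5 at 0.18 ± 0.08 (0.249). Without the block limma called 0 of the 7 (2 had an unadjusted p under 0.05, as did 397 of the 15521 probe sets) and 0 of all probe sets. The markers Pdgfrb, Tagln and Acta2 rose and Kdr fell in the same comparison, and the part of the cells they mark was not tested. Without untreated replicate 1 the block fit kept Ier3 alone (0.46, adjusted p = 0.0397), with Nr4a1 at 0.72 (0.0608), Egr1 at 0.62 (0.0763) and Klf4 at 0.36 (0.169). Without untreated replicate 2 Egr1 (adjusted p = 0.0737) and Klf4 (0.0679) lost their call. Klf4 also lost it without replicate 1 or 2 of ET-1, replicate 1 of ET-2, or replicate 1 or 2 of ET-3 (0.0513 to 0.0622). With replicate 1 or replicate 2 left out whole, 0 members passed (limma, with 228 and 214 probe sets called in all), and without replicate 3 the 5 genes Egr1, Egr2, Ier3, Nr4a1 and Klf4 did (with 562 called in all).

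By single peptide, Egr1 and Ier3 passed with ET-1 and with ET-3, and 0 members passed with ET-2. With ET-1 the log2 change was 0.80 ± 0.17 for Egr1 and 0.83 ± 0.18 for Ier3 (adjusted p = 0.0324 for both, limma with the block, where 1.51% of probe sets were called higher). With ET-3 it was 0.72 ± 0.17 for Egr1 (0.0435) and 0.77 ± 0.18 for Ier3 (0.0391), beside a background of 2.13%. With ET-2 the changes of these 2 genes were 0.67 ± 0.17 (adjusted p = 0.0789) and 0.65 ± 0.18 (0.0972), where 1.28% of probe sets were called higher. An unadjusted p under 0.05 in that fit was reached by 4 members, and by 2537 of all 15521 probe sets in either direction. Nr4a1 stood at 1.26 ± 0.30 with ET-1 (adjusted p = 0.0572), 1.18 ± 0.30 with ET-2 (0.0789) and 1.22 ± 0.30 with ET-3 (0.0513). Klf4 stood at 0.82 ± 0.19 with ET-1 (0.0561), 0.41 ± 0.19 with ET-2 (0.318) and 0.79 ± 0.19 with ET-3 (0.0518). The calls with ET-1 and ET-3 ended with no filter (adjusted p of 0.0618 to 0.0767) and with untreated replicate 1 (0.0536 to 0.151) or untreated replicate 2 (0.0704 to 0.138) left out. They also ended without the treated array of replicate 1 (0.115 to 0.198) or of replicate 2 (0.143 to 0.194), or without ET-2 replicate 3 (0.0548 to 0.0714). With ET-3 they ended as well without ET-1 replicate 1 (0.0579 for Egr1 and 0.0528 for Ier3) or ET-2 replicate 2 (0.0606 and 0.0508), and 1 of them did without ET-1 replicate 2, ET-1 replicate 3 or ET-2 replicate 1. With ET-1 Ier3 lost its call without ET-1 replicate 3 (0.114), and 3 members passed without ET-2 replicate 1 (251 of 15521 probe sets called in all). Without untreated replicate 3 the calls numbered 5 with ET-1, 4 with ET-2 and 5 with ET-3. The probe sets called in all rose there too, from 268 to 577 of 15521 with ET-1 and from 249 to 406 with ET-2. The total with ET-3 is not given for this fit, so its count is not read as particular to the members. All log2 changes of these comparisons share the same 3 untreated arrays.

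**Figure D3:**
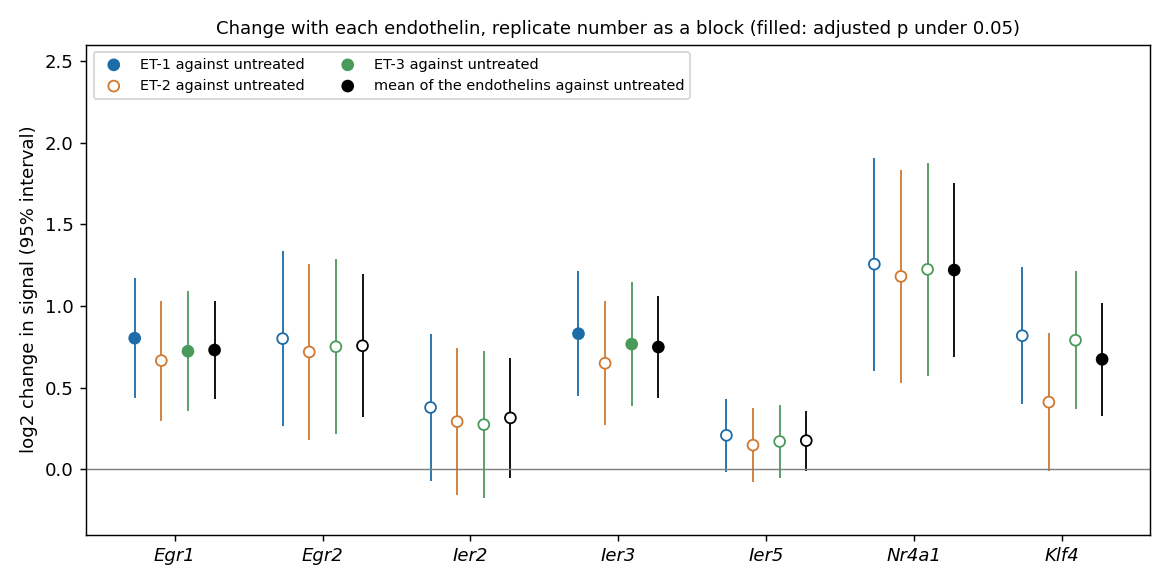
Log2 change in signal against untreated for the 7 tested genes with ET-1, ET-2, ET-3 and the mean of the endothelins, with 95% intervals from limma with the replicate number as a block; filled points have an adjusted p under 0.05. Every point lies above 0, and the filled ones are Egr1 and Ier3 with ET-1, ET-3 and the mean, and Nr4a1 and Klf4 with the mean.

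The endothelin effect was also estimated within each replicate number. An added limma model, with 1 endothelin effect per replicate number and terms for the peptide, gave the mean of the 3 endothelin arrays against the untreated array of each number. It was fitted after the data were seen, has 4 residual degrees of freedom, and assumes that each lone untreated array varies as the endothelin arrays do, so its errors come from the spread among endothelin arrays. In replicate 1 it called 6 of 7 members higher (6.29% of all probe sets), with log2 effects of 2.22 ± 0.21 for Nr4a1, 1.39 ± 0.22 for Egr2, 1.33 ± 0.13 for Ier3, 1.31 ± 0.16 for Klf4, 0.97 ± 0.17 for Ier2 and 0.95 ± 0.14 for Egr1 (SE; adjusted p at most 0.00367). Ier5 was at 0.34 ± 0.12 (adjusted p = 0.1). Nr4a1 and Egr2 are counted here although they passed the filter through their endothelin arrays, and Nr4a1 fell under it without replicate 1. Their place in the count thus rests in part on the values tested. In replicate 2 it called Nr4a1 (1.10 ± 0.21), Egr1 (1.08 ± 0.14) and Ier3 (0.64 ± 0.13), which makes 3 of 7 beside 2.05% of all probe sets, and Egr2 stood at 0.90 ± 0.22 (adjusted p = 0.0501). In replicate 3 it called 0 of 7 (0 had an unadjusted p under 0.05; 0.554% of all probe sets were called higher), with effects from -0.23 ± 0.17 (Ier2) to 0.34 ± 0.21 (Nr4a1).

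In the same model, and under the same assumption, the effect in replicate 1 exceeded that in replicate 3 for 5 of 7 members, where 1.64% of all probe sets passed in that direction. The log2 difference was 1.88 ± 0.29 for Nr4a1 (limma adjusted p = 0.006), 1.40 ± 0.31 for Egr2 (0.0375), 1.20 ± 0.24 for Ier2 (0.0265), 1.13 ± 0.22 for Klf4 (0.0226) and 1.06 ± 0.18 for Ier3 (0.0121). With no intensity trend in the variance, 4 of these 5 calls ended (adjusted p of 0.0698 to 0.109) and Nr4a1 kept its own. With no filter those of Egr2 (0.0935) and Ier2 (0.0598) ended, while Nr4a1 (0.0235), Ier3 (0.0324) and Klf4 (0.047) kept theirs. Nr4a1 and Egr2 had passed the filter through their endothelin arrays. For Egr1 the difference was 0.78 ± 0.20 (adjusted p = 0.0685), and its effects in replicates 1 and 2 differed by -0.14 ± 0.20. Between replicates 1 and 2, 0 of 7 passed, where 1.18% of probe sets passed in that direction, and between replicates 2 and 3, 0 of 7 (0.0838%). An unadjusted p under 0.05 was reached there by 4 and 3 members. The share over all probe sets is not given, so no result about the members is read from these counts. The fibroblast, pericyte and smooth muscle markers summed to 47830 to 51600 with endothelin and 40650 in untreated cells of replicate 1, and to 13230 to 15250 with endothelin and 11560 in untreated cells of replicate 3. In replicate 2 these markers summed to 12300 to 16080 with endothelin and 12280 in untreated cells. Tagln and Acta2 did not follow the sum and were lowest in replicate 1. The part of these other cells in the differences between replicates was not tested.

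**Figure D4:**
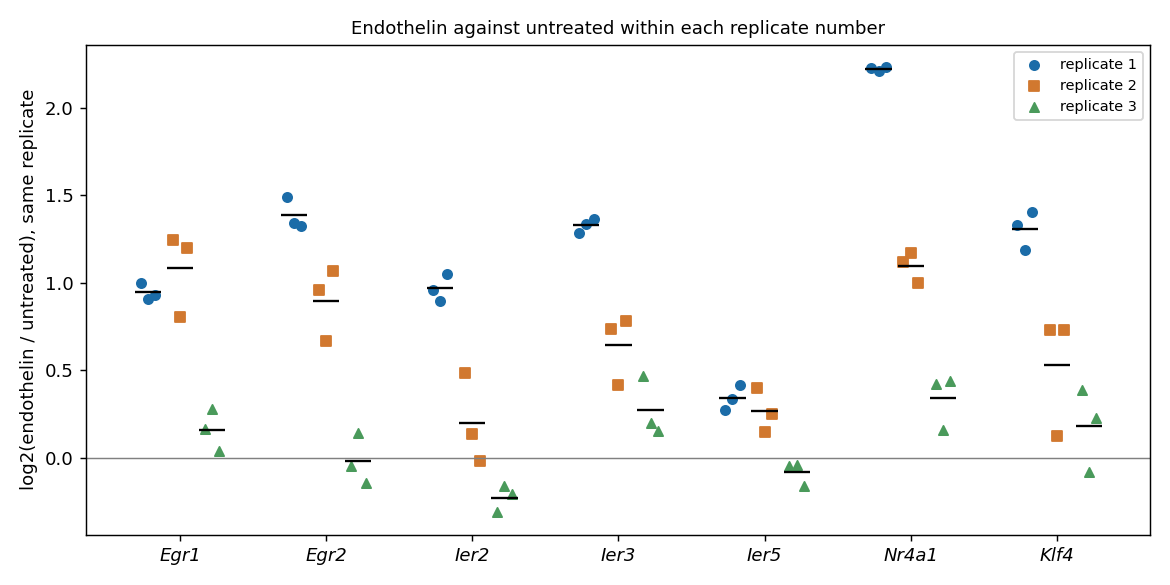
Log2 ratio of each endothelin array to the untreated array of the same replicate number for the 7 tested genes; the 3 points of a colour are ET-1, ET-2 and ET-3 from left to right, and the black bar is their mean. For Nr4a1 the means are 2.22 in replicate 1, 1.10 in replicate 2 and 0.34 in replicate 3, and for Ier2 and Ier5 all 3 points of replicate 3 lie below 0.

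The endothelins are short related peptides of 1 family, and ET-3 is known to bind the endothelin A receptor less tightly than ET-1 and ET-2, while all of them bind the B receptor well. At the equal dose of 100 nM and the same time, no difference between 2 peptides passed the test for any of the 7 tested members in any of 3 pairs (21 comparisons; 0 passed limma with or without the block, and 0 had an unadjusted p under 0.05; 0% of all probe sets passed). The widest differences were those of Klf4, at -0.41 for ET-2 against ET-1 (95% interval -0.83 to 0.01) and 0.38 for ET-3 against ET-2 (-0.04 to 0.80). For Egr1 the difference was -0.14 for ET-2 against ET-1 (-0.51 to 0.23) and -0.08 for ET-3 against ET-1 (-0.45 to 0.29). For Ier3 these were -0.18 (-0.56 to 0.20) and -0.06 (-0.45 to 0.32), and for Nr4a1 -0.07 (-0.73 to 0.58) and -0.03 (-0.68 to 0.62). Intervals of this width do not show that the peptides act alike.

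The tested members varied together within replicate numbers, and so did genes outside the set, named below. The spread of r over all probe sets is not given, so this is not read as particular to the members. After the mean of each replicate number was subtracted, Pearson's r of log2 signal across the 12 arrays ran from 0.687 (Egr1 with Ier2) to 0.96 (Ier3 with Klf4) over the 21 pairs of genes. Arrays of 1 number are not independent and all comparisons share the 3 untreated arrays, so r is a description. By the same measure the genes most like Egr1 were Ninj1 (r = 0.986), an adhesion molecule of injured nerve, the ternary complex factor Elk3 (0.985), the annexin Anxa1 (0.98), the lysyl oxidase Loxl2 (0.979) and caveolin Cav1 (0.975). Most like Ier3 were Fndc3b (0.989), Gramd2b (0.987), the hyaluronan receptor Cd44 (0.985), the LIM protein Pdlim1 (0.985) and the quinone reductase Nqo1 (0.985).

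Among other early response genes, most members of the lists did not pass the test, and those that passed rose. Of 21 other immediate early transcription factors, 17 were tested and 2 rose with the mean of the endothelins (limma with the block, 3.54% of all probe sets higher), with a list median of 0.06 against -0.03 over all tested probe sets. They were Fosl1, an AP-1 subunit (0.97 ± 0.24, adjusted p = 0.0354), and Klf5 (0.50 ± 0.11, 0.0203), and Klf5 also passed with ET-3 alone (0.57, 0.0413). Fosl1 stood at 1.99, 0.82 and 0.11 within replicates 1, 2 and 3. Nr4a2, a close relative of Nr4a1 named after its values were seen, did not pass (0.71 ± 0.30, adjusted p = 0.197), with 2.08, 0.17 and -0.13 within the 3 numbers. Fos (-0.01), Jun (0.02), Jund (-0.01) and Atf3 (0.01), also named after their values were seen, showed no rise with the mean (limma adjusted p of 0.871 to 0.962). They do not stand for the list, in which 13 of the 17 tested had a positive change. Junb (0.52, limma adjusted p = 0.107) and Csrnp1 (0.35, 0.182), named likewise, were higher on 8 of 9 endothelin arrays without passing. The dim, untested Nr4a3 and Fosb, also named likewise, stood at 1.02 and 0.55. Without replicate 1 neither Fosl1 (limma adjusted p = 0.241) nor Klf5 (0.27) passed, and without replicate 2 neither did (0.171 and 0.164). Fosl1 passed in 8 of 21 alternatives and stood at 0.46 without untreated replicate 1 (0.155), and Klf5 passed in 17.

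Of 24 early response genes that are not transcription factors, 18 were tested and 5 rose with the mean of the endothelins (3.54% of all probe sets), 3 with ET-1 (1.51%), 4 with ET-2 (1.28%) and 5 with ET-3 (2.13%). The list median was 0.22 for the mean. Ptgs2, the inducible cyclooxygenase, rose by 1.56 ± 0.19 (adjusted p = 7e-04), and by 1.97, 1.89 and 0.82 within replicates 1, 2 and 3. Ccn1, a matricellular protein, rose by 1.38 ± 0.18 (0.00136), and by 2.10, 1.38 and 0.67 within them. Smaller increases were those of Zfp36l1, which destabilises AU-rich mRNAs (0.39 ± 0.06, 0.00415), the MAP kinase phosphatase Dusp1 (0.27 ± 0.05, 0.00806) and the stress sensor Gadd45b (0.32 ± 0.08, 0.0471). Ptgs2 and Ccn1 passed in all 21 alternatives of the block fit with a value for the mean of the endothelins (adjusted p at most 0.0202 and 0.0397), and Ptgs2 still stood at 1.36 without replicate 1 (adjusted p = 0.00909). Gadd45b passed in 3 of 21, and without replicate 1 Zfp36l1 (0.0651) and Dusp1 (0.0726) did not pass. Without replicate 2 Zfp36l1 (limma adjusted p = 0.0716) and Dusp1 (0.0766) did not pass either.

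Of 16 Egr corepressors and upstream transcription factors, 15 were tested and 3 rose with the mean of the endothelins (median 0.09; 3.54% of all probe sets rose). They were Nab2, a corepressor of the Egr proteins that Egr1 itself induces (0.67 ± 0.14, adjusted p = 0.0203), the ternary complex factor Elk3 (0.82 ± 0.13, 0.00319) and the CREB relative Atf1 (0.30 ± 0.06, 0.0191). Nab2 was higher on all 9 endothelin arrays, at 0.998, 0.36 and 0.64 within replicates 1, 2 and 3, and lost its call without replicate 1 (0.50, limma adjusted p = 0.278), as did Elk3 (0.0613) and Atf1 (0.213). Elk3 (0.0614) and Atf1 (0.0757) also lost theirs without replicate 2, and Nab2 without replicate 3 (0.075). Over 21 alternatives Nab2 passed in 18, Elk3 in 19 and Atf1 in 15. The other corepressor, Nab1, was at -0.19 ± 0.07 and did not pass (0.129), and neither did serum response factor itself (Srf, 0.11 ± 0.09, 0.494). Of 19 genes of the ERK pathway and endothelin receptors, 10 were measured and 8 tested, and 0 passed with any peptide or with their mean. The nearest were Plcb1 (-0.17 ± 0.06, adjusted p = 0.11), Spry4 (0.18 ± 0.07, 0.169) and Spry2 (0.14 ± 0.07, 0.252), and both receptors were not analysed here.

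**Figure D5:**
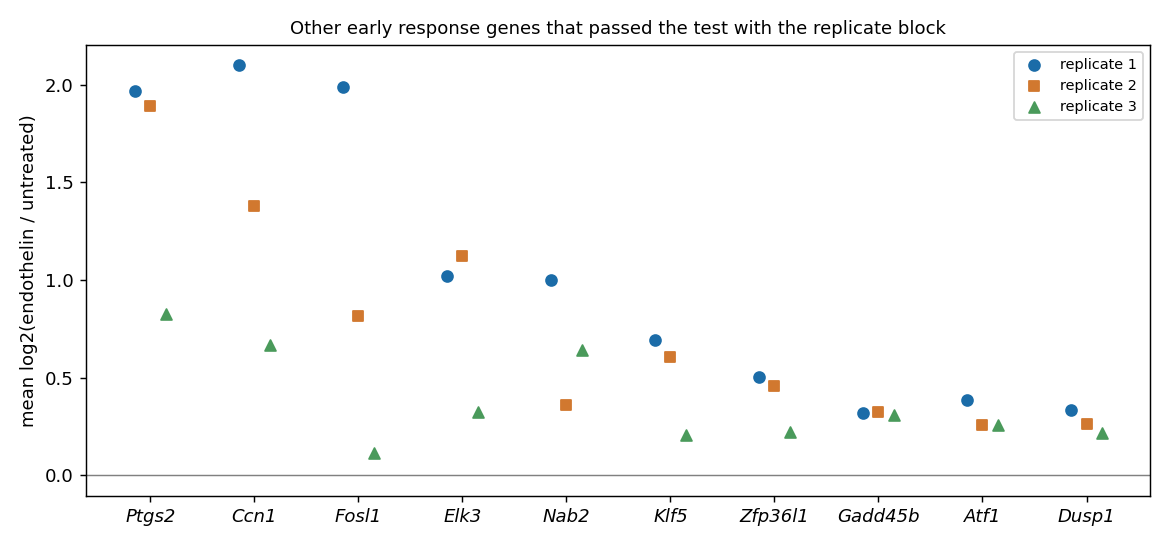
Mean log2 ratio of the 3 endothelin arrays to the untreated array within replicates 1, 2 and 3 for the 10 genes of the other lists that passed limma with the block in at least 1 comparison. Every point lies above 0, from 0.11 (Fosl1 in replicate 3) to 2.10 (Ccn1 in replicate 1).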

How the data were processed

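The deposited table gives 1 MAS5 intensity per probe set and array, on a linear scale; MAS5 is named in the submitters' processing notes, while no source used here states its version or settings. The trimmed mean (2% off each end) was 496.7 to 498.3 on the 12 arrays, and array medians ran from 136 to 181, so the authors' values appear scaled to a common mean. Detection calls were not used here, and the number of arrays limits the precision. Of 31042 probe sets, 20826 had 1 gene symbol, 436 several and 9780 none. Signals were taken as log2 without a pseudocount. The 15521 probe sets with a mean log2 signal at or above the median (147.5) were tested with limma 3.58.1 in R 4.3.3: 4 group means, an intensity trend, two-sided p and Benjamini-Hochberg adjustment over all of them, threshold 0.05. A second fit, planned beside it, adds the replicate number as a blocking term. Deviations from group means correlated in all 18 pairs of arrays with the same number (r 0.684 to 0.912) between groups, so arrays were paired by number on the strength of the data, since the labels do not say what a number stands for. Median residual SD was 0.127 with that term and 0.25 without. The scripts were tested on simulated data. Named were all members, genes of the pathway lists that passed in a comparison (otherwise up to 3 of the smallest p in a list), and the 5 genes most like Egr1 and Ier3. Nab1, Srf, Nr4a2, Nr4a3, Fos, Fosb, Jun, Junb, Jund, Atf3, Csrnp1 and the cell markers were named after their values were seen. The members and lists were chosen with earlier results of these data known.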

Additional observations from a re-analysis of the deposited data

Results flagged for a closer look

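The difference between the endothelin effect in replicate 1 and that in replicate 3 passed the test for 5 of the 7 tested members in the model added after the data were seen, which has 1 untreated array per number. On the log2 scale it was 1.40 for Egr2, 1.20 for Ier2, 1.06 for Ier3, 1.88 for Nr4a1 and 1.13 for Klf4. For Ier2 the effect in replicate 3 was -0.23, the other way from the 0.97 of replicate 1. The calls of Egr2, Ier2, Ier3 and Klf4 ended with no intensity trend (adjusted p of 0.0698 to 0.109), and those of Egr2 (0.0935) and Ier2 (0.0598) also with no filter. Egr2 and Nr4a1 were among the 7 through their endothelin arrays, since their untreated means lay under the filter.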

How the results depend on the processing

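Without the replicate number as a block, all 114 counts of members past the threshold were 0. With the replicate block the count was 2 with ET-1, 0 with ET-2, 2 with ET-3 and 4 with their mean. It was 2 with ET-1 also under log2(signal + 32), quantile normalization, the filter at the 25 percentile and any probe set of a gene, and 2 with ET-3 under these other than the lower filter, which gave 0. No filter, median centring, no intensity trend and a fit of only the groups compared gave 0 with ET-1 and with ET-3. The probe sets called in all ran from 78 to 183 in these fits with ET-1, against 268 in the block fit. With ET-3 they were 446 under median centring and 56 to 273 in the others, against 410. With ET-2, where the member count stayed 0, they rose from 249 to 1218 under median centring. For the mean the member count was 4 under no filter, the lower filter, log2(signal + 32), median centring and any probe set. It was 3 under quantile normalization and no intensity trend, where Klf4 was lost (limma adjusted p = 0.0526 and 0.078). Leaving out arrays gave 0 to 5 with ET-1 (values of 1, 2, 3, 4 and 5 arose), 0 to 4 with ET-2 (2 without replicate 3), 0 to 5 with ET-3 (1, 2 and 5 arose) and 0 to 5 with the mean (1, 2, 3, 4 and 5 arose). In the same fits the probe sets called in all, of 15521, ran from 23 to 577 with ET-1 and from 28 to 406 with ET-2. Without whole replicates 1, 2 and 3 they numbered 88, 43 and 293 with ET-3, and 228, 214 and 562 with the mean. The member counts are therefore not read as particular to the members. Pairs of endothelins gave 0 in all 47 alternatives. Of 1278 values of the members, 11 turned direction. For Ier2, log2 changes without replicate 1 were -0.011 with ET-2, -0.11 with ET-3 and -0.012 with the mean, with or without the block, and without untreated replicate 1 they were -0.035, -0.053 and -0.012 with the block. Over the fits that left out arrays without the block, Ier2 ranged from -0.011 to 0.52 with ET-2, from -0.11 to 0.51 with ET-3 (-0.051 without ET-3 replicate 1) and from -0.012 to 0.59 with the mean. In the same fits Klf4 ranged from -0.27 to 0.77 with ET-2, Zfp36l1 from -0.045 to 0.72 with ET-2 and from -0.074 to 0.73 with ET-3, and Atf1 from -0.048 to 0.48 with ET-3, the negative values being those without the treated array of replicate 1. The difference between replicates 1 and 3 lost its call for Egr2 (0.0935) and Ier2 (0.0598) with no filter, and gained one for Egr1 (0.91, 0.0269) with median centring. The cause of these shifts was not tested. Without replicate 1, Nr4a1 fell under the filter and gave no value. The 3 arrays a group limit the precision.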
